A study of Mus musculus with 6 samples.

Results

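The Hox genes encode homeodomain transcription factors that lie side by side in 4 clusters in the mouse genome. They were taken as every protein-coding gene of the GENCODE mouse annotation (release 21, build mm10) whose symbol is Hoxa, Hoxb, Hoxc or Hoxd followed by digits only, which gave 39 of 21938 protein-coding genes. Binding of GATA4 and of GATA6 had been profiled, with 3 libraries for each, by CUT&RUN, an assay that releases the DNA next to a bound protein with a nuclease tethered through an antibody. All 6 libraries came from XEN cells, the cultured counterpart of the extraembryonic (primitive) endoderm, and the labels give the line 3F2 for each and no treatment. The study's methods describe the 3F lines as carrying an Oct4-GFP reporter, M2rtTA at R26 and TetO-OKSmCh at Col1a1, name 3F6 beside 3F2 and give fewer replicates than the labels, which were followed here. Nothing says that the 3 libraries of a factor are separate cultures, so their spread may be technical. The deposited lists give called regions and no expression, so the cell type could not be checked against marker genes.

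Hox genes give cells their position along the head-to-tail axis of the embryo. Their order along the chromosome matches the order in which they are used, from the anterior genes of low paralog number to the posterior genes of high number, and in pluripotent and other early cells the clusters are known as large domains silenced by Polycomb proteins. GATA4 and GATA6 are zinc finger factors that specify the primitive endoderm and bind short sites with a GATA core.

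Hoxa held 11 genes over 105.3 kb (chr6:52155590-52260880), Hoxb 10 genes over 173.9 kb (chr11:96194316-96368256), Hoxc 9 genes over 115.8 kb (chr15:102921103-103036852) and Hoxd 9 genes over 96.8 kb (chr2:74668310-74765142). A region is a stretch of DNA that the authors' peak caller, SEACR, reported in a library, and a combined region is a stretch covered by overlapping regions of all 3 libraries of a factor. A region was assigned to a gene when it lay within 1 kb (promoter) or 50 kb of any annotated transcription start site (TSS), and a region near several Hox genes was counted as 1. The 50 kb windows of the 39 genes overlap and together covered 882.5 kb. The lists held 46646 to 49597 regions in the GATA4 libraries and 42446 to 46484 in the GATA6 libraries, and 8282 GATA4 and 5170 GATA6 combined regions. Every library was to be sequenced to 30000000 reads per the labels, and the depth after filtering is unknown.

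No Hox gene had a combined region of either factor within 50 kb, so the sequences shown are those of regions that came closest, by recurring in at least 3 of the 6 libraries outside exons. Merging overlapping regions over the 6 libraries gave 55 merged regions within 50 kb of a Hox TSS, of which 7 were called in at least 3 libraries. Of these, 4 that lie outside exons are printed below as 200 bases around the stretch that most libraries shared, or centred between such stretches for the Hoxc4 flank. Sequences are GRCm38/mm10, plus strand, from the RefSeq copy of the genome, with matches to the GATA motif in capitals. The motif was searched on both strands as GATA with A or T before it and A or G after it.
Hoxb6 intron, chr11:96294584-96294783: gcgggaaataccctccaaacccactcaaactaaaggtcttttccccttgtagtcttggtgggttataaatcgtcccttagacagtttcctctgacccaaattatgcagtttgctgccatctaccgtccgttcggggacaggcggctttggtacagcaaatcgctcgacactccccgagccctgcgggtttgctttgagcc
Upstream of Hoxc13, chr15:102920685-102920884: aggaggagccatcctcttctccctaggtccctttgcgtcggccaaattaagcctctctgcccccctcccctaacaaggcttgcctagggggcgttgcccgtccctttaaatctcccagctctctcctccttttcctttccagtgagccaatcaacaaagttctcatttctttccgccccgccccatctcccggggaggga
Upstream of Hoxc8, in a Hoxc5 intron, chr15:102987504-102987703: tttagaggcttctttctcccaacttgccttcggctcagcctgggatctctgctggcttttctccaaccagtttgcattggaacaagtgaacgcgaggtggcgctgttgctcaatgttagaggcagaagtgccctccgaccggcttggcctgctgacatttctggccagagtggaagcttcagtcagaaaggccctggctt
Flank of Hoxc4, chr15:103083690-103083889: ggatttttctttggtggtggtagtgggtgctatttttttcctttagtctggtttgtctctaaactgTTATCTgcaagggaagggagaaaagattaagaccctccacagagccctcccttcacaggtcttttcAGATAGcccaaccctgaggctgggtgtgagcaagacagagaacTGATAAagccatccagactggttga
Capitals appear in the Hoxc4 flank alone, which held 3 matches. Of the 3 libraries in which this flank was called, only GATA6 replicate 3 had a region over the window's centre and over the matches. The other 3 windows held no match to these letters. Over all 55 merged regions, 18 (32.7%) had a match within 100 bases of the midpoint, against 36.9% of the 119982 merged regions near other genes. Of the 7 recurrent Hox regions 1 had such a match (14.3%), against 33.5% of the 13956 regions near other genes called in at least 3 libraries. With so few regions this difference was not tested. Over their whole length, the Hoxb6, Hoxc8 and Hoxc4 regions held 5, 1 and 5 matches and the rest of the 7 none. Whole regions near other genes were not counted that way. The motif occurred 1.84 times per kb in the 50 kb windows of Hox genes (GC content 47.1%) and 2.37 times per kb in those of other genes (43.4%). Inside the 4 cluster spans it occurred 1.47 times per kb (49.3%). Of the 39 genes, 22 matched a RefSeq promoter (250 bases before to 50 after the start) in the table used, and 7 of their 24 promoters held a match (29.2%), beside 25.4% of 20126 promoters of other genes.

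The combined lists left the 4 clusters empty. For GATA4, 0 of 39 Hox genes had a combined region within 1 kb, where 19.8% of the 21899 other protein-coding genes had one. Within 50 kb the count was again 0 of 39, against 47.8% of other genes. For GATA6 the counts were 0 of 39 at both distances, against 13.8% of other genes within 1 kb and 38.1% within 50 kb. A count of 0 of 39 has an exact binomial (Clopper-Pearson) 95% upper bound of 9.03%, which covers counting error only, and neighbouring Hox genes share windows, so they are not independent draws. A CpG-rich start was found for 29 of the 39 Hox genes, and of other genes with such a start 32.4% had a GATA4 and 22.2% a GATA6 combined region within 1 kb.

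The zero has to be read against the length searched and against the demand for all 3 libraries. At the density found around other genes, 882.5 kb would hold 4.80 GATA4 and 3.04 GATA6 combined regions. By a 1-sided 95% Poisson bound, a count of 0 allows up to 3. The GATA4 value lies above that limit and the GATA6 value close to it. The bound assumes independent regions at a uniform density, and density differed between chromosomes. It is a rough guide and not a test, and a 2-sided bound would be higher. Without Hoxd the 687.8 kb left would hold 3.74 and 2.37. These densities include chromosomes 8, 14 and 19, which hold no Hox cluster and had more regions per Mb in each library. Expected numbers without them were not computed and may be lower. Of other genes within 5 Mb of Hoxa, Hoxb, Hoxc and Hoxd, 36.89%, 58.5%, 60.47% and 1.408% had a GATA4 combined region within 50 kb. For GATA6 the shares were 19.42%, 49.01%, 38.95% and 1.408%. Both lie below all other genes around Hoxa and Hoxd, and above them around Hoxb and Hoxc. When a region needed only 2 of the 3 libraries of a factor, 7 GATA4 and 5 GATA6 regions fell within 50 kb of a Hox TSS, where the density around other genes would give 10.0 and 7.80. These few regions sit in dense clusters, so 26 of 39 Hox genes (66.7%) then had a GATA4 region within 50 kb, against 64.6% of other genes, and 26 had a GATA6 region, against 59.8%. Within 50 kb the absence therefore held for regions found in all 3 libraries and not for those found in at least 2. At promoters the counts stayed low under the same rule: only Hoxa5 and Hoxc13 (5.13% of Hox genes) had a GATA4 region within 1 kb, against 32.0% of other genes, and only Hoxa5 (2.56%) a GATA6 region, against 26.8%.

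Combined regions began outside each cluster. The nearest to any Hox TSS was a GATA4 region inside Ttll6 (chr11:96140594-96141582), 52734 bp from the TSS of Hoxb13, the posterior end of Hoxb, and the nearest GATA6 region lay 118173 bp from Hoxb13 at the TSS of Atp5g1. On the anterior side of Hoxb the nearest GATA4 region, in Skap1, was 101.9 kb from Hoxb1. Next to Hoxa, both factors had a combined region at the TSS of Skap2, 142.2 kb (GATA4) and 142.3 kb (GATA6) from the edge of the cluster. Next to Hoxc, a GATA4 region at the TSS of Smug1 lay 130.9 kb from Hoxc4 and a GATA6 region 184.3 kb from Hoxc13. The stretch free of combined regions of either factor thus measured 626.6 kb around Hoxa, 326.6 kb around Hoxb and 428.5 kb around Hoxc. Such lengths are not rare on these chromosomes, where 14.2%, 11.1% and 12.6% of the gaps between combined regions were at least as long. The stretch around Hoxd measured 10603 kb, and 0.176% of the gaps on chromosome 2 were at least as long. These shares count every gap equally, while a given locus falls more often in a long gap than in a short one. They therefore overstate how unusual the stretches are.

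Hoxd lies in a part of chromosome 2 where few regions of any kind were called. From 55 to 78 Mb (chr2:55000001-78000000) the libraries held 1.44 to 2.91 regions per Mb, against 13 to 15.5 per Mb on the rest of the chromosome, a mean ratio of 0.144 ± 0.0292 (SD, n = 6). These limits were set from the numbers of regions per 1-Mb bin, as the run around Hoxd in which the moving mean of 3 bins and 6 libraries stayed below 50% of the chromosome's median bin. Single bins inside it can be higher, and 1 had means of 13 (GATA4) and 9 (GATA6). Of the 125 other protein-coding genes in this segment, 0 had a GATA4 and 1 a GATA6 combined region within 1 kb, against 15.7% and 11.1% of the genes on the rest of chromosome 2. Both the ratio and these shares follow in part from limits drawn on low counts in the same libraries. The low number of regions at Hoxd is shared by its surroundings, and a property of the cluster cannot be told apart from one of the segment. Results over all 4 clusters are given below with and without Hoxd.

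**Figure D1:**
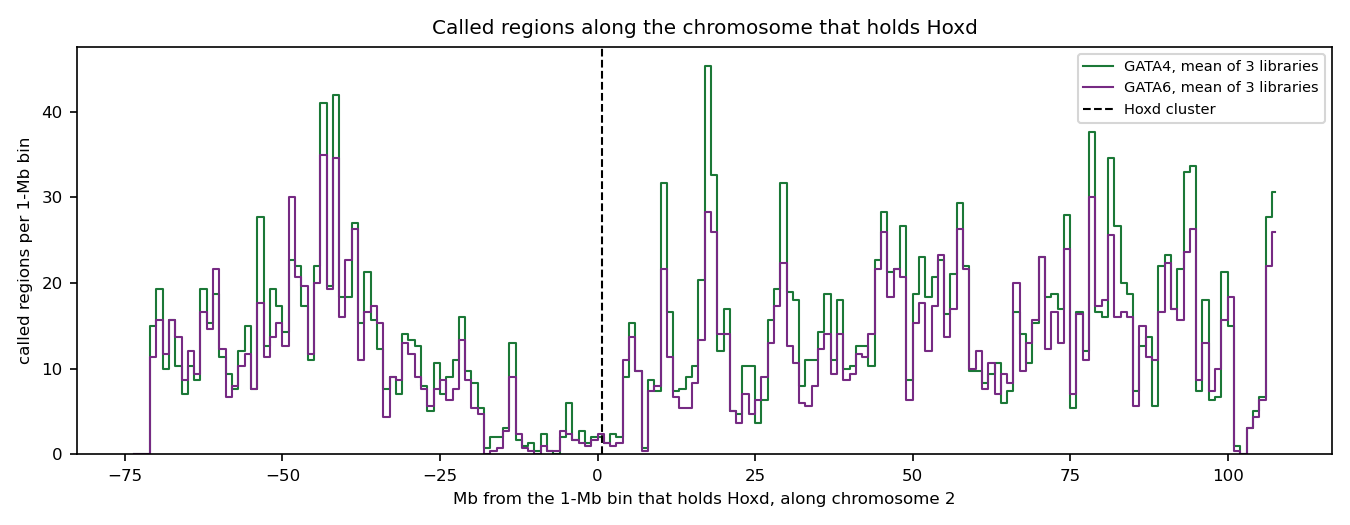
Called regions per 1-Mb bin (y axis) along chromosome 2 (x axis, Mb from the bin that holds Hoxd), as the mean of 3 GATA4 (green) and 3 GATA6 (purple) libraries. The 23 Mb segment around Hoxd (dashed line) has low bins apart from 1 bin with means of 13 (GATA4) and 9 (GATA6).

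Single libraries did hold regions at the other 3 clusters. Within 50 kb of a Hox TSS the GATA4 libraries had 18, 17 and 10 regions and the GATA6 libraries 7, 14 and 13. Replicate 1 was the highest of the GATA4 and the lowest of the GATA6 libraries, and the groups overlapped. The mean was 15 ± 4.36 (SD, n = 3) for GATA4 and 11.3 ± 3.79 (n = 3) for GATA6, a difference of 3.67 regions that did not exceed the spread (two-sided exact permutation test, p = 0.4, with 0.1 the smallest p this design allows). Within 1 kb the GATA4 libraries had 6, 6 and 2 regions and the GATA6 libraries 2, 3 and 4 (4.67 ± 2.31 and 3 ± 1, exact permutation p = 0.4). The depth left in each library after filtering is unknown, and its part in these counts was not tested.

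**Figure D2:**
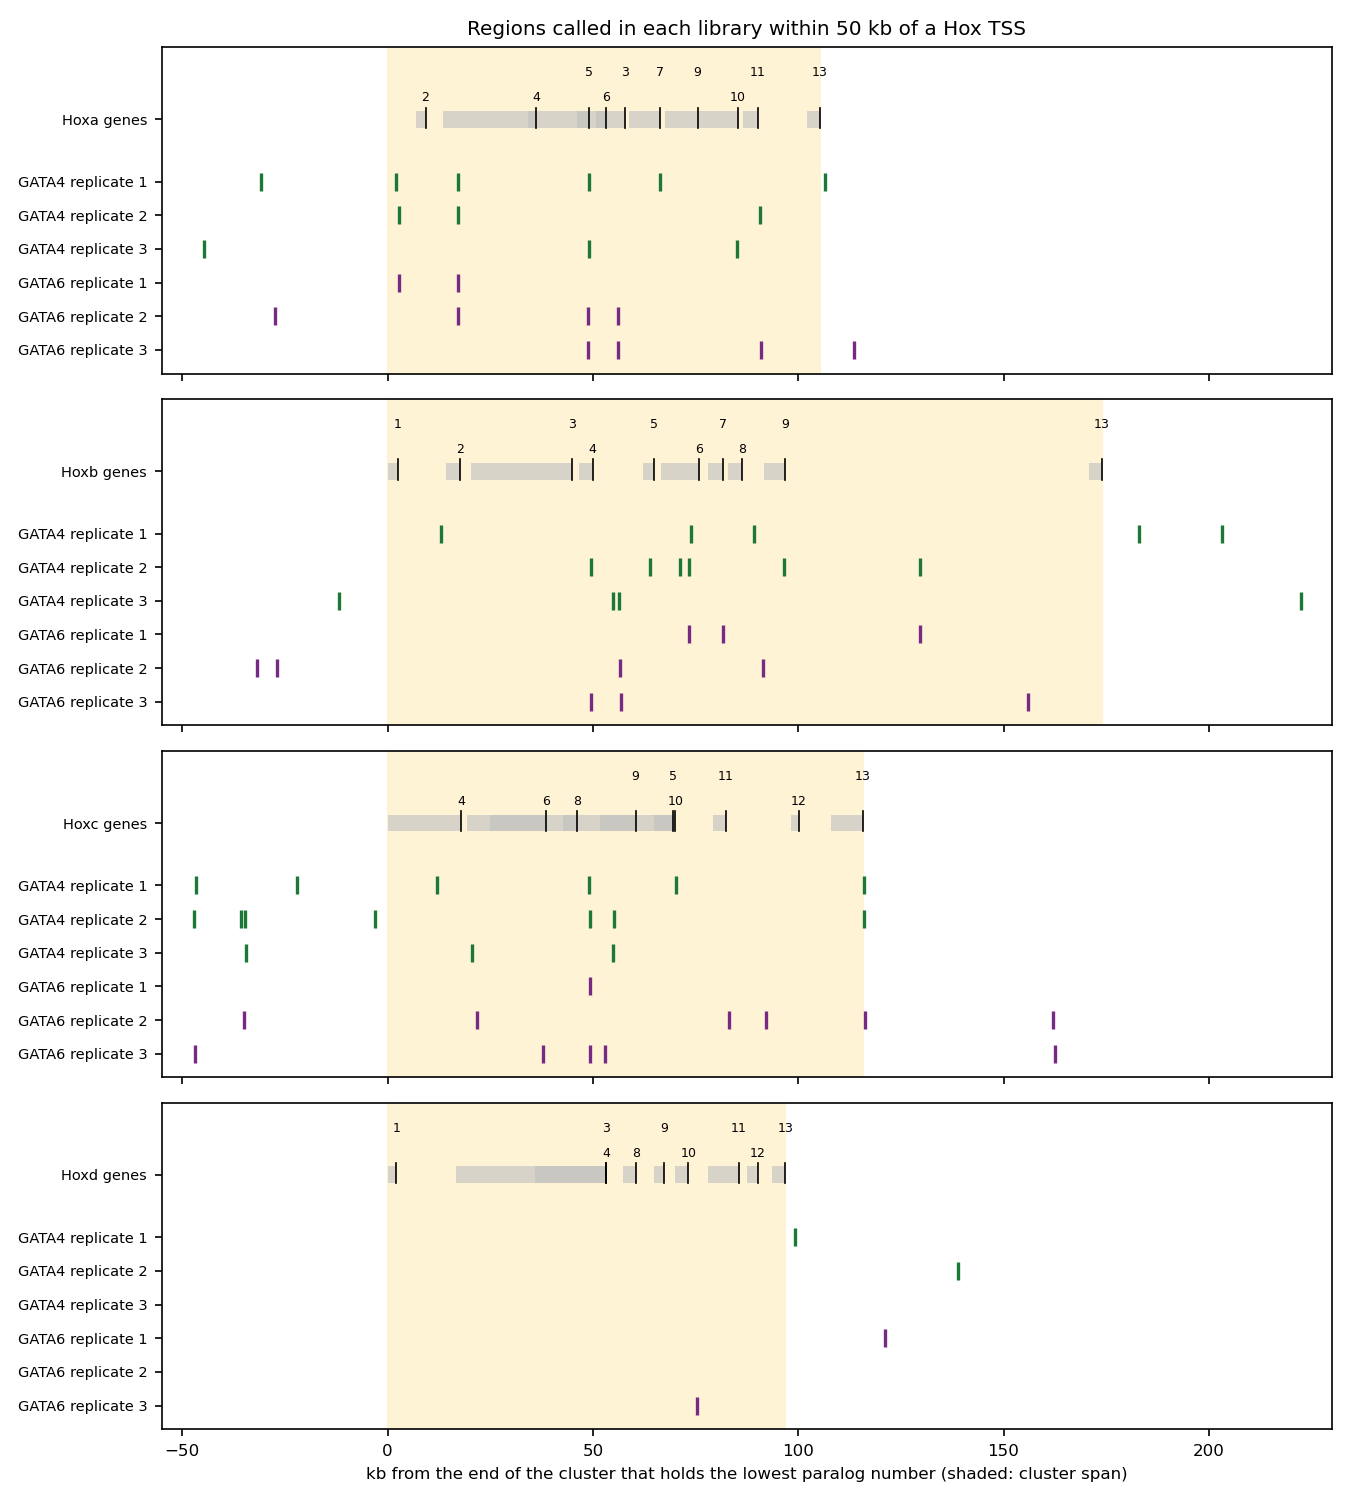
Regions called in each of the 6 libraries (rows; GATA4 green, GATA6 purple) within 50 kb of a Hox TSS, against distance in kb from the end of the cluster that holds the lowest paralog number. Grey boxes are genes, black ticks and numbers their 5' ends and paralog numbers (1 gene is not drawn), and the shaded part is the cluster span. Hoxd had 1 region inside its span over all 6 libraries.

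By cluster, the 6 libraries together had 22 region calls within 50 kb at Hoxa, 25 at Hoxb, 28 at Hoxc and 4 at Hoxd. Hoxa had 6, 3 and 3 regions in the GATA4 libraries and 2, 4 and 4 in the GATA6 libraries, so the groups overlapped. Hoxb had 5, 6 and 4 against 3, 4 and 3, with the groups meeting at 4. Hoxc varied most between libraries, with 6, 7 and 3 against 1, 6 and 5. Hoxd had at most 1 region in any library and none in GATA4 replicate 3 and GATA6 replicate 2. Per Mb, the mean over 6 libraries was 18.1 ± 6.75 at Hoxa, 15.3 ± 4.30 at Hoxb, 21.9 ± 10.6 at Hoxc and 3.43 ± 2.65 at Hoxd (SD, n = 6).

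Each cluster was also set beside the other genes within 5 Mb of it. Around Hoxb, the windows of 253 other genes held 30.9 ± 4.94 regions per Mb, and the cluster was below them in 6 of 6 libraries. Around Hoxc, with 172 other genes, the surroundings had 29.6 ± 3.13 per Mb and the cluster was lower in 4 of 6 libraries. Hoxa had about the same density as its 103 neighbours (17.1 ± 2.20 per Mb) and was lower in 3 of 6. Hoxd had about the same density as its 71 neighbours (3.56 ± 0.882 per Mb) and was lower in 2 of 6. Differences between the clusters in this ratio were not tested.

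**Figure D3:**
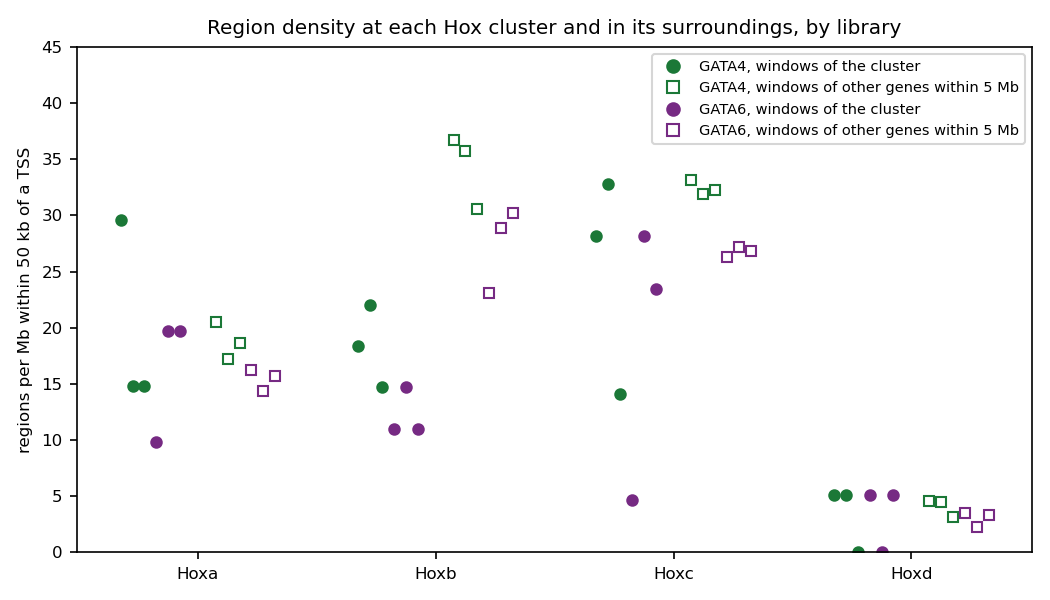
Regions per Mb within 50 kb of a TSS (y axis) at each Hox cluster (filled circles) and around the other protein-coding genes within 5 Mb of it (open squares), 1 symbol per library, GATA4 in green and GATA6 in purple. At Hoxb the circles lie below the squares of the same library in 6 of 6 libraries, while at Hoxa and Hoxd they overlap.

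Over all 4 clusters, the density within 50 kb of a Hox TSS was below that around other genes in every library. The Hox windows held 20.4, 19.3 and 11.3 regions per Mb in the GATA4 libraries and 7.93, 15.9 and 14.7 in the GATA6 libraries, while the windows of other genes held 20.6 to 24.8. The ratio of Hox to other genes was 0.824, 0.825 and 0.477 for GATA4 and 0.356, 0.771 and 0.678 for GATA6. On the log2 scale the mean was -0.68 ± 0.50 (SD, n = 6; two-sided exact sign-flip test over the 6 libraries, p = 0.031, the smallest it can give), and the factors did not differ in it beyond their spread (exact permutation p = 0.5). The sign-flip test weighs agreement between libraries over the same genes, and not variation between genes or clusters. The size of the difference between Hox and other genes depended on what it was set against. Without Hoxd the mean was -0.40, still below 0 in 6 of 6 libraries (exact sign-flip p = 0.031), but in 3 of them by at most 0.02. The windows of other genes on chromosomes 8, 14 and 19 held 55.3 ± 3.55 regions per Mb, against 18.6 ± 1.51 on the other chromosomes (SD, n = 6), and none of the 4 clusters lies on these 3. Without Hoxd and without these chromosomes the mean was -0.11 and 3 of 6 libraries were below 0 (exact sign-flip p = 0.719). Without Hoxd and against other genes within 5 Mb it was -0.61, below 0 in 6 of 6 libraries (exact sign-flip p = 0.031).

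At promoters the Hox genes were lower than all other genes, other genes with a CpG-rich start and other genes within 5 Mb. The share of the 39 Hox genes with a region within 1 kb was 17.9%, 15.4% and 5.13% in the GATA4 libraries and 5.13%, 7.69% and 10.3% in the GATA6 libraries. Other protein-coding genes lay between 30.6% and 36.7% in the same libraries, so the ranges did not overlap. The mean difference was -23.5 ± 4.47 percentage points (SD, n = 6; exact sign-flip p = 0.031, lower in 6 of 6 libraries). Here too the p weighs agreement between libraries over the same 39 genes, and not variation between genes or clusters. Against other genes with a CpG-rich start, of which 51.6 ± 4.15% had a region, the difference was -41.4 points. The Hox side of it kept all 39 genes, of which 29 have a CpG-rich start. Against other genes within 5 Mb of the clusters, weighted by the Hox genes in each cluster, 24.3 ± 2.75% had a region and the difference was -14.0 ± 4.06 points. Without Hoxd the share of the remaining Hox genes was 13.3 ± 6.99% and the difference from all other genes -20.5 points. Each of these 3 differences was below 0 in 6 of 6 libraries, with an exact sign-flip p of 0.031. Other genes with a CpG-poor start, 15.4 ± 0.651% of which had a region, lay inside the range of the Hox shares. The Hox share was above theirs in GATA4 replicate 1 (17.9% against 16.2%) and below it in the remaining libraries. That comparison was not tested. Within 50 kb, by contrast, 82.1 ± 12.9% of Hox genes and 82.6 ± 0.942% of other genes had a region in a library (exact sign-flip p = 0.844), where the shared windows let 1 region count for many Hox genes.

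**Figure D4:**
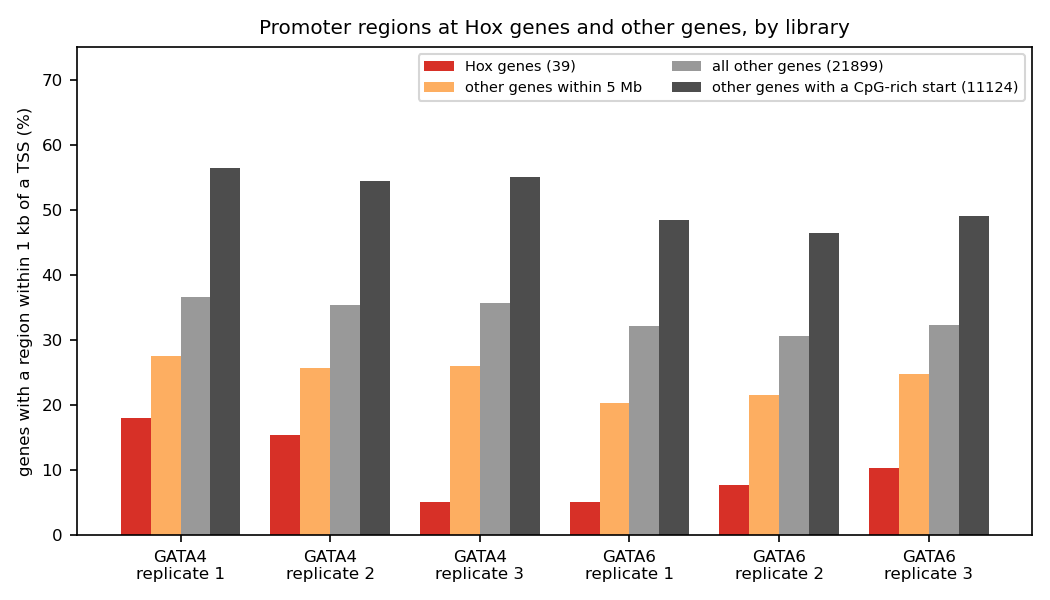
Share of genes with a called region within 1 kb of a TSS (y axis, %) in each library, for the 39 Hox genes (red), other genes within 5 Mb of the same cluster (orange), all other protein-coding genes (grey) and other genes with a CpG-rich start (dark grey). In each library the Hox bar is the lowest, from 5.13% to 17.9%.

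Over the 6 libraries, 15 of 39 Hox genes (38.5%) had a region within 1 kb in at least 1 library, against 59.7% of other genes. These were 6 of 11 genes in Hoxa, 4 of 10 in Hoxb, 5 of 9 in Hoxc and 0 of 9 in Hoxd. By position, they included 7 of the 15 central genes (paralog groups 4 to 8) and 7 of the 16 posterior genes (groups 9 to 13). Hoxa5, a central gene known for its roles in the lung and the axial skeleton, was marked in 4 libraries, GATA4 replicates 1 and 3 and GATA6 replicates 2 and 3, more than any other Hox gene. Hoxc13, a posterior gene needed for hair formation, was marked in 3 libraries, GATA4 replicates 1 and 2 and GATA6 replicate 2.

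Hoxa11, a posterior gene of the limb and the reproductive tract, and Hoxb4, known for its effect on blood stem cells, were each marked in GATA4 replicate 2 and GATA6 replicate 3. A further 10 genes were marked in 1 library each: Hoxa7, Hoxa10, Hoxa13, Hoxb5, Hoxb9, Hoxc5 and Hoxc10 in a GATA4 library and Hoxb7, Hoxc6 and Hoxc11 in a GATA6 library. Hoxc5 and Hoxc10 were marked by the same region (chr15:102966362-102966759), which lies near an upstream TSS of Hoxc5. In all, 24 Hox genes had no promoter region in any library. Within 50 kb, 38 of 39 Hox genes (97.4%) had a region in at least 1 library, against 95.4% of other genes, and the exception was Hoxd1.

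Few of the regions recurred between libraries, near Hox genes and near other genes alike. Of the 55 merged regions, 41 were called in 1 library, 7 in 2, 4 in 3, 3 in 4 and none in 5 or 6. The share in 1 library was 74.55%, against 78.4% of the merged regions around other genes. The 7 in at least 3 libraries make up 12.7%, which is near the 11.6% of merged regions around other genes that reached 3 libraries. For at least 5 libraries the share was 0 of 55 (exact 95% upper bound 6.49%) against 5.20%. Among the 15 merged regions within 1 kb of a Hox TSS, 2 reached 3 libraries (13.3%, exact 95% interval 1.66% to 40.5%), against 34.1% of the 20651 such regions at other genes. By factor, 26 merged regions were called for GATA4 alone (47.3%), 18 for GATA6 alone (32.7%) and 11 for both (20%), beside 43.0%, 40.5% and 16.5% of the merged regions around other genes.

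In Hoxa, a region in an exon of Hoxa3, 7766 bp from the TSS of Hoxa2 (chr6:52172597-52172997), was called in GATA4 replicates 1 and 2 and GATA6 replicates 1 and 2. Its maximum signal, the highest fragment pileup in the region, was 7, 8, 9 and 6 in that order. The region at the TSS of Hoxa5 (chr6:52204291-52204771) had maxima of 5 and 5 in GATA4 replicates 1 and 3 and of 3 and 6 in GATA6 replicates 2 and 3. These are low pileups: over the libraries the median maximum of the Hox regions was 3 to 5, and that of regions near other genes was 4 in each.

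In Hoxb, a region in an intron of Hoxb6 (chr11:96294154-96295155) had maxima of 3, 7 and 5 in GATA4 replicates 1 and 2 and GATA6 replicate 1. The 7 genes from Hoxb3 to Hoxb9 each lay within 50 kb of a region in 6 of 6 libraries.

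In Hoxc, a region in an intron of Hoxc5, 2598 bp from the TSS of Hoxc8 (chr15:102987316-102988009), was called in 4 libraries. Its maximum was 3 and 5 in GATA4 replicates 1 and 2 and 9 and 10 in GATA6 replicates 1 and 3. Pileups are not scaled for depth and are not compared between libraries. By total signal it stood at percentile 92.5 in the list of GATA6 replicate 3 and between percentiles 48.2 and 51.6 in the other 3 lists. The region 111 bp upstream of Hoxc13 (chr15:102920478-102920992) had maxima of 4, 5 and 4. The region 49027 bp from Hoxc4 (chr15:103083422-103084311), the only recurrent one with a GATA motif within 100 bases of its midpoint, had maxima of 4, 3 and 4 and stood at percentiles 3.87, 49.6 and 87.2 of total signal in its 3 lists.

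Ranked by total signal within their own lists, the Hox regions had a median percentile of 59.4, 51.9 and 33.5 in the GATA4 libraries and 42.3, 42.1 and 55.6 in the GATA6 libraries, a mean of 47.5 ± 9.80, beside 54.8 ± 0.658 for regions near other genes (SD, n = 6). The highest-ranked Hox region of a library stood between percentiles 81.1 and 92.5. Of the noncoding genes of the clusters, Gm15050, Gm27492, Gm27695 and Mir615, a microRNA gene, had their starts inside a merged region, and Hoxb3os, Gm27985, Gm27337 and 5730585A16Rik had one within 1 kb. The Mir615 and Hoxb3os regions were called in 1 library each.

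The same lists did hold regions at genes that work with or upstream of Hox genes. Of the 9 TALE cofactors, the Pbx, Meis and Pknox homeodomain proteins that bind DNA together with Hox proteins, 7 had a GATA4 combined region within 50 kb and 6 a GATA6 region, beside the 47.8% and 38.1% of other genes. Within 1 kb, GATA4 regions lay at Pbx4, Meis2 and Pknox1 and GATA6 regions at Pbx4 and Meis2. Of the 14 Polycomb and MLL regulators, which silence Hox genes or keep them active, 10 had a GATA4 and 8 a GATA6 combined region within 50 kb. At promoters they were 6 for GATA4 (Ezh1, Suz12, Rnf2, Cbx7, Kmt2b and Men1) and 4 for GATA6 (Ezh1, Suz12, Cbx7 and Men1). Within 1 kb the shares of other genes were 19.8% and 13.8%, and those of other genes with a CpG-rich start 32.4% and 22.2%, beside 33.3% and 22.2% of TALE cofactors and 42.9% and 28.6% of Polycomb and MLL regulators. The intervals of the last list, 17.7% to 71.1% and 8.39% to 58.1%, include both backgrounds. Within 50 kb, 62.15% (GATA4) and 49.02% (GATA6) of other genes with a CpG-rich start had a combined region. These lists are short, and the exact 95% interval of 7 of 9 runs from 40.0% to 97.2% and that of 10 of 14 from 41.9% to 91.6%. For GATA6, that of 6 of 9 runs from 29.9% to 92.5% and that of 8 of 14 from 28.9% to 82.3%. Each of these intervals includes both backgrounds within 50 kb, so no excess over other genes can be told from them.

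Homeobox genes of other developmental families are set beside the same 47.8% (GATA4) and 38.1% (GATA6) of other genes within 50 kb. Of the Cdx and ParaHox genes, which include the Cdx activators of Hox genes, 1 of 6 had a GATA4 combined region within 50 kb (Cdx4) and 0 a GATA6 region. Both Evx genes, which sit beside Hoxa and Hoxd, had none. Of the 12 Dlx and Irx genes, clustered homeobox genes of the forebrain, limb and heart, 1 had a GATA4 region within 50 kb (Irx5) and 0 a GATA6 region. The exact 95% intervals of the GATA4 shares run from 0.421% to 64.1% for Cdx and ParaHox and from 0% to 84.2% for Evx. That of Dlx and Irx runs from 0.211% to 38.5% and is the only one below the share of other genes. Being clustered, the Dlx and Irx genes are not independent draws either, so their interval is too narrow to decide a difference. None of these genes had a combined region of either factor within 1 kb. Dlx1, Dlx2 and Evx2 lie on chromosome 2 near Hoxd, in the segment with few regions.

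**Figure D5:**
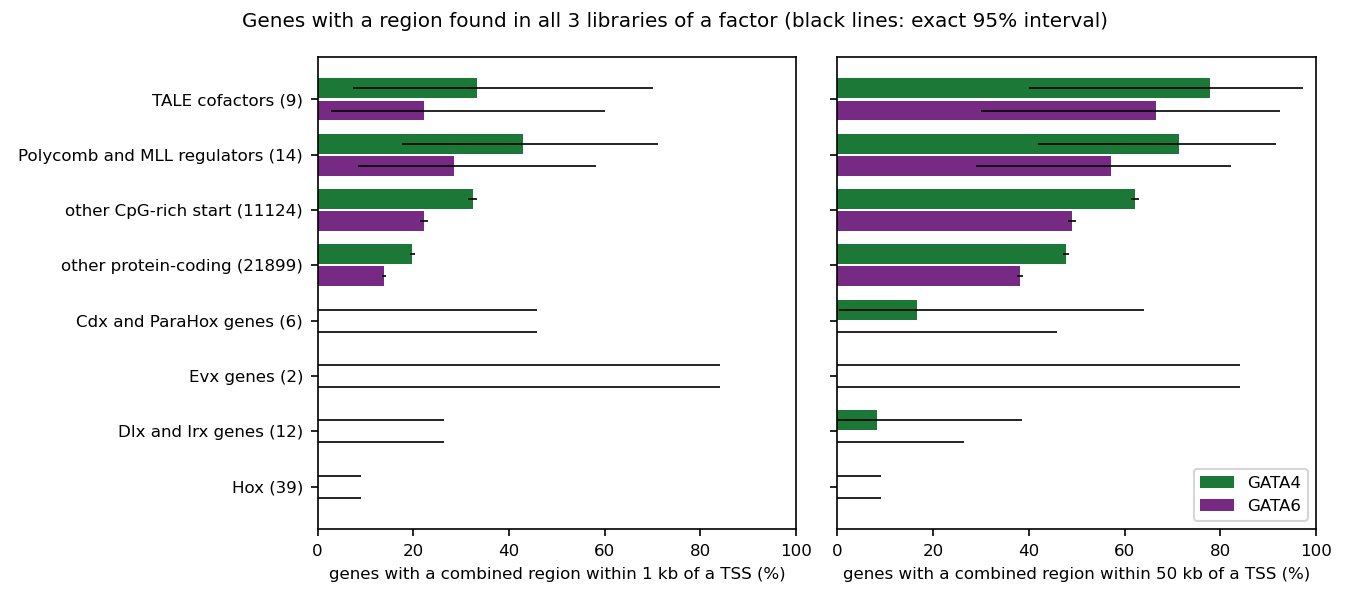
Share of genes (x axis, %) with a combined region within 1 kb (left) and 50 kb (right) of a TSS, for GATA4 (green) and GATA6 (purple), with the number of genes in each list in parentheses and exact 95% intervals as black lines. The Hox bars are 0% in both panels with an upper bound of 9.03%. The bars of the TALE cofactors and of the Polycomb and MLL regulators are longer than those of the other protein-coding genes. Their intervals include the shares of all other genes and of other genes with a CpG-rich start.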

How the data were processed

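Per the labels and the study's methods, the authors performed CUT&RUN on 500000 XEN cells per assay, aligned reads to mm10 with bowtie2 2.3.4.1, removed duplicates, reads of mapping quality under 20, mitochondrial and blacklisted reads, and ran SEACR 1.3 on every library by itself at a threshold of 0.01, described as non stringent, while the file names carry the stringent mode. No control entered the call as described, and a threshold of this kind bears on the number of regions in a list. The deposited library lists give each region's total and maximum signal (fragment coverage, not scaled for depth), so signal was used within a list alone. The deposited combined lists hold positions, and merging the 3 lists of a factor returned all 8282 and 5170 of them.

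Distances ran from region edges to every annotated TSS of GENCODE mouse release 21. Libraries were the replicates. Factors were compared by an exact permutation test, and Hox with other genes within a library by an exact sign-flip test over 6 libraries. The latter measures agreement between libraries on a fixed set of genes. Shares have exact Clopper-Pearson 95% intervals, which cover counting error only. A start was CpG-rich at an observed to expected CpG ratio of at least 0.6 and a GC content of at least 50%. Scripts used Python 3.11.15, numpy 2.4.6 and scipy 1.17.1 and were tested on simulated data. All Hox genes entered the counts, and some items are not reported here. Members and lists were chosen with earlier results of these data known, and the comparisons without Hoxd, within 5 Mb and of promoter shares were added after seeing the data.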

Additional observations from a re-analysis of the deposited data

How the results depend on the processing

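GATA4 minus GATA6 region counts kept their direction under each alternative run. Their p cannot go below 0.1 with these libraries, so missing the threshold says nothing about stability. The difference of 3.67 within 50 kb became 1.5 without GATA6 replicate 1, 2.17 without GATA4 replicate 1, 6.17 without GATA4 replicate 3 and 6.33 in a 100 kb window, and that of 1.67 within 1 kb became 1 without GATA4 replicate 1 or 2 and 3 without GATA4 replicate 3. The density of Hox relative to other genes stayed lower under each alternative, and 6 libraries are the fewest with which its exact sign-flip test can pass the threshold. By that exact test it lost significance in the higher-signal 50% of each list (log2 ratio -0.75, p = 0.0625), without Hoxd and without chromosomes 8, 14 and 19 (-0.11, p = 0.719) and, by construction, with fewer values: the replicate block gave -0.68 (p = 0.25) and leaving out 1 library -0.75 to -0.51. For the promoter share the replicate block gave -23.5 percentage points (exact sign-flip p = 0.25) and leaving out 1 library -24.5 to -22.1. The deviations of same-numbered libraries correlated at 0.00102 to 0.00148 over 201994 merged regions, so the calls showed no pairing by replicate number. Most merged regions near genes were called in 1 library, so these values cannot exclude such a pairing.

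The counts of 0 in the combined lists depended on the demand for all 3 libraries. With at least 2 of 3, the Hox genes with a region within 50 kb numbered 26 for GATA4 and 26 for GATA6 (7 and 5 distinct regions), and within 1 kb 2 and 1. Leaving out 1 library and asking for both others gave 8 to 23 genes and 1 to 4 regions within 50 kb for GATA4, 7 to 19 genes and 1 to 3 regions for GATA6, and 0 to 1 gene within 1 kb for either factor. The highest GATA4 count came without replicate 3 and the highest GATA6 count without replicate 1. A 100 kb window gave 1 gene (Hoxb13) and 1 region for GATA4 and 0 for GATA6. Depth after filtering is unknown, so a missing call does not show that a site was unbound.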
